A study of Mus musculus with 3 samples.

Results

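*Snrpn*, *Ndn*, *Peg3*, *Nnat*, *Impact*, *Ube3a*, *Grb10* and *Igf2* are 8 imprinted genes among the 14933 genes counted in single cells of the mPFC. They were picked by their symbols with measured values of the same cells in view, so their levels between classes and genotypes are given as descriptions, without tests. The data were 3 10X libraries of tdTomato-positive cells sorted by FACS from C57Bl6 mice at postnatal day 5, 1 library for each genotype. All libraries, wild-type included, carried Cre under the *Rbp4* promoter, which is active in layer 5 neurons, and a tdTomato reporter that Cre switches on. The wild-type library (Rbp4cre::tdTomato) had no floxed *Tbr1* allele, the heterozygous library (Tbr1f/+::Rbp4cre::tdTomato) had 1, and in the homozygous library (Tbr1f/f::Rbp4cre::tdTomato) both alleles of *Tbr1*, a transcription factor of early cortical neurons, were floxed. The number of animals behind a library is not given in the sources used here, and with 1 library per genotype no difference between genotypes has a replicate check.

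An imprinted gene is expressed mostly or only from the copy inherited from 1 parent, because the other copy is silenced through DNA methylation and chromatin marks set in the germ line. Imprinted genes lie in clusters, and many of them act in brain and in growth before and after birth. In the mouse, *Snrpn*, *Ndn*, *Peg3*, *Nnat* and *Impact* are expressed from the paternal copy, and so is *Igf2* in many but not all tissues. *Ube3a* is maternal in mature neurons and biallelic in many other cells, and *Grb10* switches from maternal expression in most tissues to paternal expression in neurons. The counts hold no allele, so every level below sums both copies.

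*Tbr1*, the targeted gene, reached 27.5 CPM in the wild-type library, against 30.7 CPM in heterozygous and 22.4 CPM in homozygous, where CPM is the UMIs of a gene per 1000000 UMIs, both summed over typical neuronal cells. Its 3′ tags lie outside the deleted exons, so these levels do not check the labels. The filtered table held 17396 cells, of which the authors listed 11943 as neuronal and divided these into typical cells, retained for their differential expression, and atypical cells. Typical cells numbered 1778 in wild-type, 5357 in heterozygous and 3935 in homozygous. All 10 excitatory neuron markers had UMIs there in each, but so did all 10 inhibitory and all 10 astrocyte markers. The presence of UMIs thus does not set the cell type. In the same order, the excitatory list summed to 3004, 3660 and 4329 CPM, the inhibitory list to 600, 537 and 661 CPM and the astrocyte list to 9008, 7912 and 8819 CPM. Although the sort was on tdTomato, 5453 filtered cells lay outside the neuronal list. In these other cells the astrocyte list summed to 7498, 7375 and 7086 CPM in the same order. This was lower than in typical cells of each library, so the astrocyte sum does not set the cell type either. Libraries shared 37 to 58 cell barcodes pairwise.

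5 of the 8 genes lie on mouse chromosome 7, and *Snrpn*, *Ube3a* and *Ndn* lie in a single cluster of it, the counterpart of the human Prader-Willi and Angelman region. On GRCm38, *Ube3a* spans chr7:59228750-59311536 on the plus strand, *Snrpn* chr7:59982495-60140219 on the minus strand and *Ndn* chr7:62346569-62350262 on the plus strand. *Peg3* spans chr7:6703892-6730431 and *Igf2* chr7:142650766-142666816, both on the minus strand. *Nnat* (chr2:157560078-157562522, plus strand) sits inside *Blcap* on the opposite strand, and *Grb10* spans chr11:11930508-12038683 on the minus strand. The coding unit *Snurf*, upstream of *Snrpn* on the same transcripts, is a separate entry in the gene list and held 0 UMIs over all barcodes, against 122430 for *Snrpn*. *Gm38393*, which overlaps both on the same strand, held 389.

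The promoters of the 3 genes with the most UMIs in typical cells are shown because the results turn on these genes. Each line gives the 250 bases before a RefSeq start on GRCm38.p6, 5′ to 3′, with CpG dinucleotides, the sites of DNA methylation, in capitals. The *Snrpn* window (chr7:60005200-60005449, minus strand) is 1 of its 4 RefSeq starts, the *Ndn* window is chr7:62348027-62348276 (plus strand) and the *Nnat* window is chr2:157559828-157560077 (plus strand).
Snrpn: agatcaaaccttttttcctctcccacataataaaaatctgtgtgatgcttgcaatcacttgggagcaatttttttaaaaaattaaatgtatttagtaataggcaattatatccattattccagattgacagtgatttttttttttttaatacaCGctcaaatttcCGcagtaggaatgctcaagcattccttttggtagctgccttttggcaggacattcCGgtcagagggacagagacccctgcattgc
Ndn: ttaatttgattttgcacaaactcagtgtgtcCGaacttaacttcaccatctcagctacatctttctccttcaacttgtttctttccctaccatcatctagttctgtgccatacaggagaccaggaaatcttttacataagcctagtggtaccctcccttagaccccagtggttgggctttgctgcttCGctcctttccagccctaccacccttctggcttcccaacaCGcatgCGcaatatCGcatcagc
Nnat: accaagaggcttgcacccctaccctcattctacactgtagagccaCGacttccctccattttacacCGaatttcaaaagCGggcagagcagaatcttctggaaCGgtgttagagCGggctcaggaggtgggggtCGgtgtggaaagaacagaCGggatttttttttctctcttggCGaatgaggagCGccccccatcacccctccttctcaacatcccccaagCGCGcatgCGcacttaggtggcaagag
These windows hold 3 CpG for *Snrpn*, 5 for *Ndn* and 12 for *Nnat*, against a median of 6 over 32851 mouse promoters. The 14 windows of 7 of the 8 genes span 1 CpG, at an *Igf2* start, to 40 CpG, at a *Grb10* start. Tbr1 is a T-box factor. GGTGTG, the core of the T-box motif, searched on both strands and contained in the longer motif, occurs in 3 of the 14 windows, 1 each of *Nnat*, *Peg3* and *Snrpn*, and in 16.3% of all promoters. The longer AGGTGTGA, searched on both strands, occurs in 0 of the 14 windows and in 1.12% of all promoters. A match is a description of letters and not a binding site.

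*Snrpn*, which encodes the Sm protein SmN of the spliceosome in neurons, was higher in both mutant libraries than in wild-type. In typical cells it held 3607 UMIs in the wild-type library, or 983 CPM (95% Poisson interval 951 to 1015). The heterozygous library had 1353 CPM (1330.5 to 1375) and the homozygous library 1396 CPM (1367 to 1426). The mutant libraries lay close together, both above wild-type, and the log2 ratio over wild-type was 0.46 for the heterozygous library (0.41 to 0.51, exact conditional binomial interval) and 0.51 for the homozygous one (0.45 to 0.56). These intervals cover counting error only, and the spread between libraries of 1 genotype is unknown.

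*Ndn*, which encodes necdin, a MAGE family protein that limits growth and cell death in postmitotic neurons, was lowest in the heterozygous library. Its level in typical cells was 240.3 CPM (225 to 257) in wild-type, 153 CPM (146 to 161) in heterozygous and 283 CPM (269 to 296) in homozygous. The log2 ratio was −0.65 (−0.77 to −0.53) for heterozygous over wild-type, 0.23 (0.12 to 0.35) for homozygous over wild-type and 0.88 (0.78 to 0.98) for homozygous over heterozygous. The order of the levels thus does not follow the number of floxed alleles.

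*Nnat*, which encodes neuronatin, a small membrane protein of the endoplasmic reticulum linked to calcium handling, was lower in both mutant libraries. It held 975 CPM (943 to 1008) in wild-type, 786 CPM (769 to 803) in heterozygous and 819 CPM (796 to 842) in homozygous typical cells. The log2 ratio was −0.31 (−0.37 to −0.25) for heterozygous and −0.25 (−0.31 to −0.19) for homozygous over wild-type.

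The other 5 genes had few UMIs in typical cells. *Ube3a*, the ubiquitin ligase lost in Angelman syndrome, had 68.9 CPM (wild-type), 55.5 CPM (heterozygous) and 61.9 CPM (homozygous), and its log2 ratio was −0.31 (−0.53 to −0.09) for heterozygous and −0.16 (−0.39 to 0.08) for homozygous over wild-type. *Impact*, an inhibitor of the Gcn2 kinase pathway, had 17.2, 22.4 and 22.4 CPM in the same order, and its interval included 0 in both mutant libraries. *Peg3*, a zinc finger protein linked to cell death and maternal behaviour, had 17.7, 13.3 and 12.2 CPM, with a homozygous over wild-type log2 ratio of −0.54 (−1.04 to −0.04). The homozygous interval of *Peg3* left out 0 only narrowly, and its heterozygous interval (−0.84 to 0.04) did not.

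*Grb10*, an adaptor that restrains insulin and IGF receptor signalling, held 24, 38 and 23 UMIs in typical cells of wild-type, heterozygous and homozygous, which is 6.54, 3.65 and 3.79 CPM. *Igf2*, a growth factor, held 34, 16 and 12 UMIs, which is 9.26, 1.54 and 1.98 CPM. The *Igf2* log2 ratio was −2.59 (−3.55 to −1.70) for heterozygous and −2.23 (−3.31 to −1.24) for homozygous over wild-type. Both genes were lower in typical than in other cells of every library, although they were grouped here as genes expressed in neurons. The other cells also hold neuron-like types, whose *Grb10* level is given below.

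The counts of members past a log2 ratio of 0.5 were set beside those of all genes. At a mean of at least 20 CPM, 5.32% of 4269 genes were at least 0.5 higher and 3.28% at least 0.5 lower in homozygous than in wild-type, and 1 (*Snrpn*) and 0 of the 4 members that passed this filter were. For heterozygous over wild-type these shares were 6.36% and 3.97%, and 0 and 1 (*Ndn*) of 4 members were. For homozygous over heterozygous they were 1.11% and 0.813%, and 1 (*Ndn*) and 0 of 5 members were. The heterozygous library was at least 0.5 lower than both others for 0.54% of genes, *Ndn* among them. The median log2 ratio of all genes was 0.08 for homozygous and 0.06 for heterozygous over wild-type. *Snrpn* lay near the limit of 0.5, and 4 alternatives that placed it at 0.45 or more left it below.

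**Figure D1:**
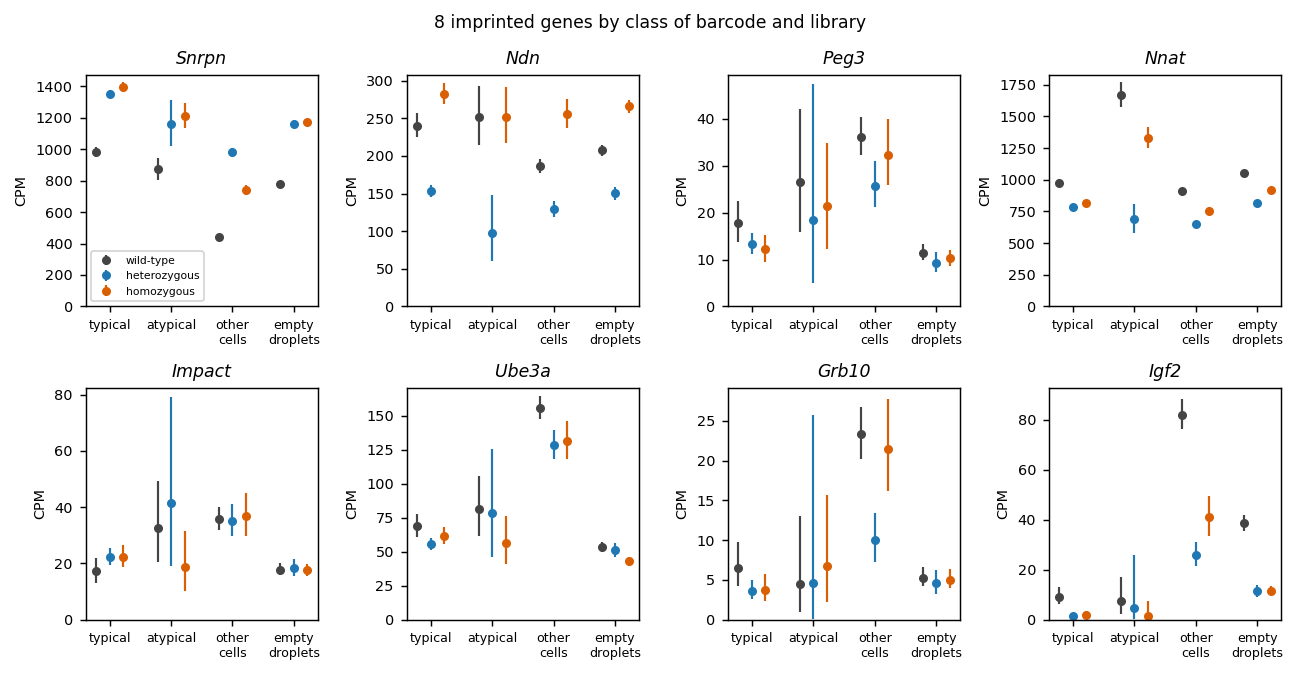
CPM (vertical axes, from 0) of the 8 genes in typical cells, atypical cells, other filtered cells and empty droplets; points are 1 library each and bars 95% Poisson intervals of the summed UMIs. *Ndn* is lowest in the heterozygous library in every class, and *Snrpn* is lowest in wild-type in every class.

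Empty droplets, here barcodes with at least 100 and under 500 UMIs, hold free RNA of each suspension and gave levels of *Snrpn*, *Ndn* and *Nnat* close to those of typical cells. *Snrpn* had 777 CPM (wild-type), 1164 CPM (heterozygous) and 1172 CPM (homozygous) in empty droplets, and *Nnat* had 1053, 818 and 919 CPM. The level in typical cells over that in empty droplets was 1.26, 1.16 and 1.19 for *Snrpn*, 1.16, 1.02 and 1.06 for *Ndn* and 0.926, 0.961 and 0.891 for *Nnat*. Thus *Nnat* was not higher in typical cells than in empty droplets in any library. The differences between libraries were also present in the empty droplets, where the log2 ratio over wild-type was 0.58 in heterozygous and 0.59 in homozygous for *Snrpn*, −0.47 and 0.36 for *Ndn*, and −0.36 and −0.20 for *Nnat*. How much of the cells' levels came from free RNA was not tested beyond the subtraction among the alternatives.

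Other measures moved with the libraries. The median mitochondrial share of typical cells was 10.4% in wild-type, 15.4% in heterozygous and 12.5% in homozygous, and the median UMIs per cell were 1901, 1743 and 1375. The 10 excitatory markers summed to 3004, 3660 and 4329 CPM in typical cells. Blood markers, all led by haemoglobins, summed to 345 CPM in wild-type against 44.6 and 85.8 CPM, and endothelial markers to 159 CPM against 60.7 and 92.8 CPM. The part of each in the members' levels was not tested.

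The share of cells with a UMI was compared at equal depth. After thinning each cell to 1000 UMIs, a *Snrpn* UMI was present in 61.6% of wild-type, 72.3% of heterozygous and 75.6% of homozygous typical cells (84.8%, 89.1% and 86.3% without thinning). If all cells of a library had had the same level, 62.0%, 73.9% and 75.3% would hold a UMI. *Ndn* was present in 19.9%, 13.7% and 24.0% of cells, and *Nnat* in 61.0%, 53.7% and 55.7%. In endothelial-like cells, the type with the least *Snrpn*, 18.1%, 15.1% and 21.8% of thinned cells held a *Snrpn* UMI (45.6%, 44.2% and 48.4% without thinning), at median depths of 3347, 3020.5 and 2556.5 UMIs per cell. This type was taken for its low *Snrpn*, so a higher share in typical cells was fixed by the choice.

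*Nnat* was higher in the authors' atypical neuronal cells than in typical cells of the wild-type and homozygous libraries, beyond counting error, but not of the heterozygous library. *Nnat* was at 1671 CPM (wild-type), 689 CPM (heterozygous) and 1331 CPM (homozygous) in atypical cells, and the atypical over typical log2 ratio was 0.78, −0.19 and 0.70. Striatal neuron markers, 7 of 8 of them with UMIs, summed to 346, 425 and 519 CPM in atypical against 38.7, 35.9 and 52.5 CPM in typical cells, and excitatory markers to 1681, 3505 and 2561 CPM against 3004, 3660 and 4329 CPM, and their part in the *Nnat* level was not tested. *Snrpn* differed by −0.17, −0.22 and −0.20 on the log2 scale. No member among the 5 that passed the filter was at least 1 higher or at least 1 lower in every library, against 0.795% and 0.584% of all genes. The heterozygous library had 107 atypical cells, against 304 in wild-type and 462 in homozygous.

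Against the 5453 other cells, *Snrpn* had the highest typical over other ratio of the members in all libraries, on the log2 scale 1.15 in wild-type, 0.47 in heterozygous and 0.92 in homozygous. *Ndn* (0.36, 0.24 and 0.15) and *Nnat* (0.09, 0.28 and 0.13) differed less. *Ube3a* was lower in typical than in other cells, by −1.18, −1.21 and −1.09 on the log2 scale, and so were *Peg3* (−1.03, −0.95 and −1.41) and *Impact* (−1.06, −0.64 and −0.72). *Igf2* was at 82.1, 25.9 and 41.0 CPM in other cells, with log2 ratios of −3.15, −4.08 and −4.37. By the rule of a log2 ratio of at least 1 in each library, 0 of 7 members were higher, against 0.0386% of all genes, and *Ube3a* and *Igf2* were lower, against 12.9%. *Igf2* and *Peg3* (17.7, 13.3 and 12.2 CPM in typical cells) passed the filter only through the other cells, where they are higher. The place of *Igf2* in this count was thus fixed by the filter, and neither gene could have counted as higher. The make-up of the other cells differed between libraries. Those named excitatory neuron-like below were 44 of 2873 in wild-type, 258 of 1398 in heterozygous and 24 of 1182 in homozygous. Excitatory markers summed to 986, 2688 and 1838 CPM over all other cells in the same order, and their part in these ratios was not tested. The typical and other classes came from clustering of the same genes, so no test was made.

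The other cells were clustered without the imprinted genes and named from marker lists, and each gene then had its own order of levels over the types. *Snrpn* was high in typical and excitatory neuron-like cells, with a median over the 3 libraries of 1353 CPM in both typical cells and excitatory neuron-like cells and 1100 CPM in inhibitory neuron-like cells. The inhibitory value mixes the cluster led by *Sp8* and *Dlx* genes, with 548, 538 and 645 CPM, and the *Npy* and *Sst* cluster, with 875, 1307 and 1329 CPM in wild-type, heterozygous and homozygous. Astrocyte-like cells had 368 to 537 CPM and oligodendrocyte lineage-like cells 379 to 898 CPM, and these ranges overlapped. The highest of these, the heterozygous oligodendrocyte lineage-like value, rests mostly on 1 cluster with 31 of the 46 cells and 1354 CPM. Endothelial-like cells were at the bottom, with 170, 192 and 195 CPM, 0.165 to 0.219 times the level in empty droplets. Microglia-like cells lay between, at 376 CPM (wild-type), 884 CPM (heterozygous) and 847 CPM (homozygous), but they mixed clusters in unlike shares. The cluster with 3 microglial markers, and with excitatory neuron markers second, took 108 of 272 wild-type, 291 of 372 heterozygous and 163 of 223 homozygous cells and had 769, 1087 and 1141 CPM of *Snrpn*. The cluster with 10 microglial markers had 272, 418 and 242 CPM.

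*Nnat* and *Peg3* were higher in inhibitory neuron-like cells than in typical cells. *Nnat* had 1881 CPM (wild-type), 1355 CPM (heterozygous) and 1567 CPM (homozygous) in inhibitory neuron-like cells, and meningeal fibroblast-like cells came near with 1056 to 1329 CPM. *Peg3* had 61.8, 66.3 and 88.9 CPM in inhibitory neuron-like cells, 5.38, 7.15 and 8.70 times its level in empty droplets, and its range did not overlap that of typical cells. The libraries held unlike shares of clusters, and *Peg3* had 39.0, 32.4 and 21.8 CPM in the cluster that took 596 of 721 wild-type but 81 of 184 heterozygous cells, and 132, 78.8 and 113 CPM in the *Npy* and *Sst* cluster.

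*Ube3a* reached 248.9 CPM (wild-type), 318 CPM (heterozygous) and 244 CPM (homozygous) in inhibitory neuron-like cells, 4.66 to 6.22 times the level in empty droplets. Cajal-Retzius-like cells, transient reelin-producing neurons of the cortical surface, reached the minimum of 20 cells in wild-type only (49 cells, with a median of 6125 UMIs), and held 366 CPM of *Ube3a*, 125 CPM of *Peg3*, 151 CPM of *Impact* and 548 CPM of *Ndn*. For *Ube3a* and *Peg3* the *Npy* and *Sst* cluster of the same library was higher, with 415 and 132 CPM. In astrocyte-like cells *Impact* had 72.5, 57.2 and 67.3 CPM. Reads of *Ube3a* and of *Snhg14*, the antisense transcript over it, cannot be told apart if the counting ignored strand, and *Snhg14* was not in the gene list.

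*Ndn* spanned a wide range among inhibitory neuron-like cells, with 288 CPM (wild-type), 164 CPM (heterozygous) and 551 CPM (homozygous). These cells were a mixture that differed between libraries, since 596 of the 721 wild-type cells were in a cluster led by *Sp8* and *Dlx* genes. Within the cluster of *Npy* and *Sst* interneuron-like cells alone, *Ndn* had 479.6 CPM (wild-type), 177 CPM (heterozygous) and 673 CPM (homozygous). The low heterozygous level was thus present within a single cluster too, with log2 ratios of −1.44 over wild-type and 1.93 for homozygous over heterozygous. In endothelial-like cells *Ndn* had 51.0, 44.6 and 43.1 CPM and all intervals between libraries included 0.

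*Grb10* and *Igf2* were genes of vascular and meningeal cells here. *Igf2* had 1532 CPM (wild-type), 1438 CPM (heterozygous) and 1093 CPM (homozygous) in meningeal fibroblast-like cells, 39.8, 126 and 94.7 times the level in empty droplets. Mural cell-like cells followed with 465, 42.0 and 103 CPM, but on 93, 2 and 9 UMIs, so the mutant values are uncertain. *Grb10* had 60.2, 68.5 and 68.4 CPM in endothelial-like cells, and its ranges in endothelial-like, mural cell-like and meningeal fibroblast-like cells overlapped. In inhibitory neuron-like cells *Grb10* held 23, 7 and 9 UMIs, at 2.57, 2.67 and 3.38 times its level in empty droplets, with all log2 intervals above 0.

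In typical cells, *Igf2* was at 0.240, 0.135 and 0.171 times its level in empty droplets. The marker lists of the cells that held *Igf2* were also highest in wild-type typical cells, with 19.1, 8.45 and 8.56 CPM summed over the meningeal list and 66.5, 26.2 and 36.5 CPM over the mural list. In empty droplets *Igf2* had 38.5, 11.4 and 11.5 CPM, with a log2 ratio over wild-type of −1.76 in heterozygous and −1.74 in homozygous. The part of these in the low mutant level of *Igf2* was not tested.

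**Figure D2:**
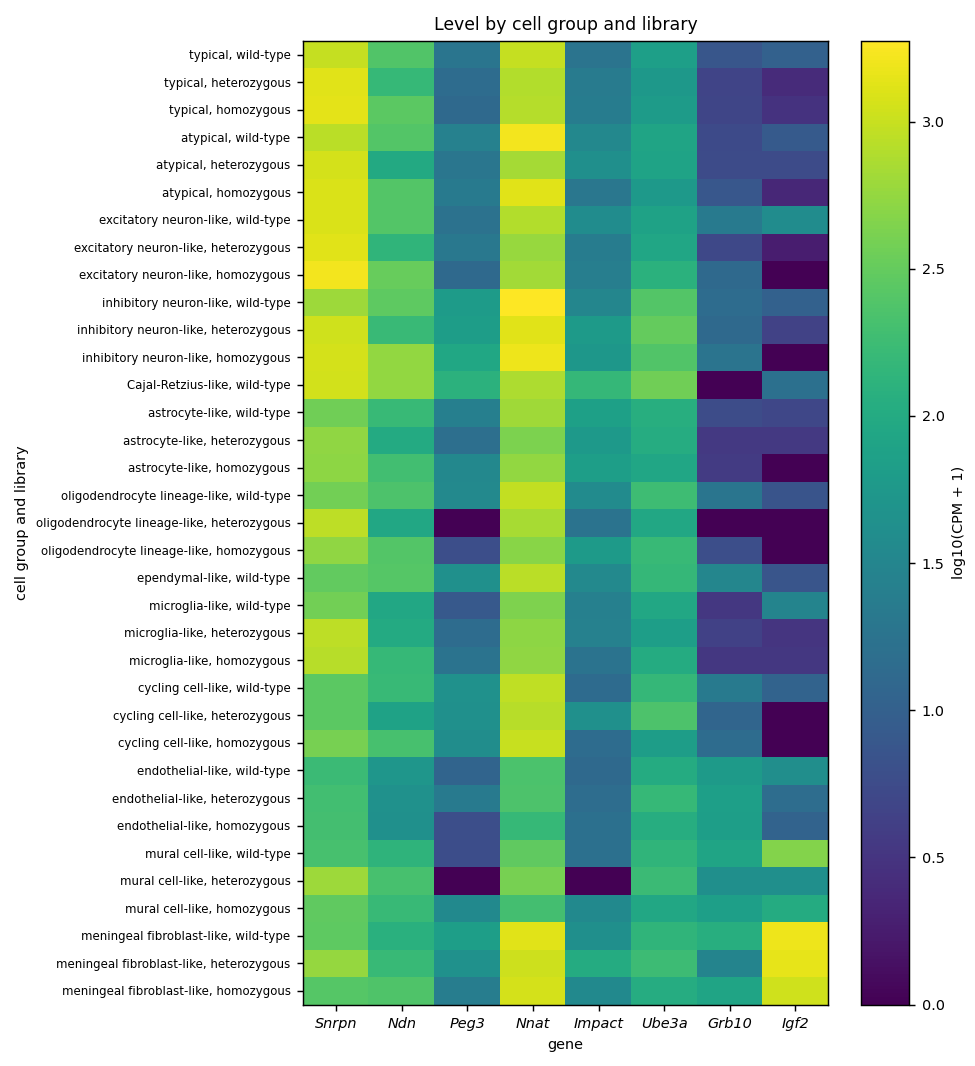
Level of each gene (columns) as log10(CPM + 1) in every cell group and library with at least 20 cells (rows). *Snrpn* is bright in neurons, *Igf2* in meningeal fibroblast-like cells and *Grb10* in endothelial-like, mural cell-like and meningeal fibroblast-like cells.

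The genotype differences were then followed over 11 groups of cells, which were the typical and atypical classes and 9 named types. The heterozygous over wild-type ratio of *Snrpn* was above 0 in 11 of 11 groups, with the interval above 0 in 8, and the homozygous over wild-type ratio was above 0 in 10 groups, with the interval above 0 in 7. The *Sp8* and *Dlx* cluster took 596 of 721 wild-type but 81 of 184 heterozygous inhibitory neuron-like cells. Within it the *Snrpn* ratio was −0.03 (−0.37 to 0.30) in heterozygous and 0.24 (−0.10 to 0.56) in homozygous. Astrocyte-like cells were a mixture too, with 300 of 439 wild-type but 84 of 165 homozygous cells in their largest cluster. There *Snrpn* had 326 CPM (wild-type), 395 CPM (heterozygous) and 296 CPM (homozygous), against 537, 878 and 840 CPM in the next largest. *Ndn* was lower in heterozygous than in wild-type in 8 of 11 groups (interval below 0 in 6), and higher in homozygous than in heterozygous in 9 (interval above 0 in 8). *Nnat* was lower than wild-type in 8 of 11 groups in heterozygous (interval below 0 in 6) and in 9 in homozygous (interval below 0 in 5). These groups share a library and its free RNA and are not replicates of a genotype.

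**Figure D3:**
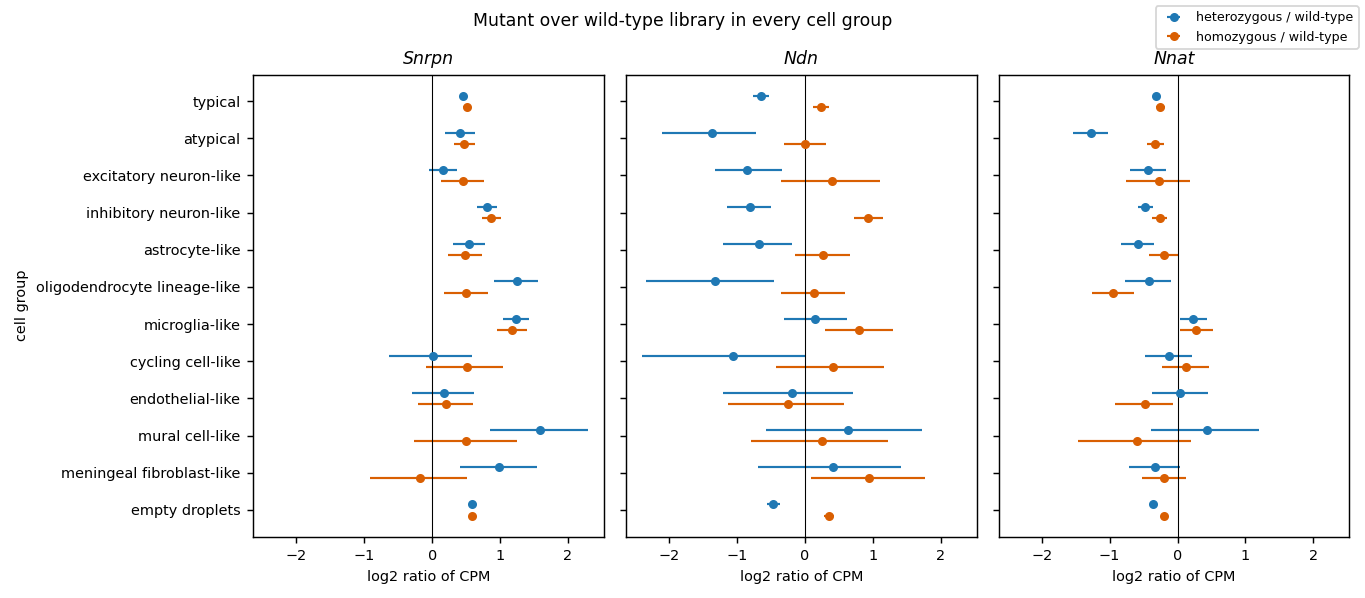
Log2 ratio of CPM of each mutant library over wild-type (horizontal axis, bars are 95% conditional binomial intervals) for *Snrpn*, *Ndn* and *Nnat* in 11 cell groups and in empty droplets. *Snrpn* lies right of 0 in nearly all groups, and *Ndn* lies on opposite sides of 0 for the mutant libraries in typical cells and in empty droplets.

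*Snrpb* encodes SmB, the paralog that SmN replaces in neurons, and served as a gene of like function that is not imprinted. *Snrpb* had 175 CPM (wild-type), 151 CPM (heterozygous) and 158 CPM (homozygous) in typical cells. *Snrpn* UMIs per *Snrpb* UMI were 5.63 (5.17 to 6.13) in wild-type, 8.98 (8.52 to 9.47) in heterozygous and 8.83 (8.25 to 9.44) in homozygous typical cells. In endothelial-like cells the ratio was 0.511, 0.691 and 0.470, and in cycling cells 0.539, 0.531 and 0.769, so *Snrpb* was the more abundant of the pair there. Empty droplets had 4.08, 6.45 and 6.37. Of 10 listed Sm core and U1 snRNP proteins of the spliceosome, *Snrpb* among them, 0 were at least 0.5 higher or lower in either mutant library, against 5.32% and 3.28% of all genes in homozygous and 6.36% and 3.97% in heterozygous, and their median log2 ratio was −0.07 in homozygous and −0.17 in heterozygous over wild-type, against 0.08 and 0.06 over all genes.

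**Figure D4:**
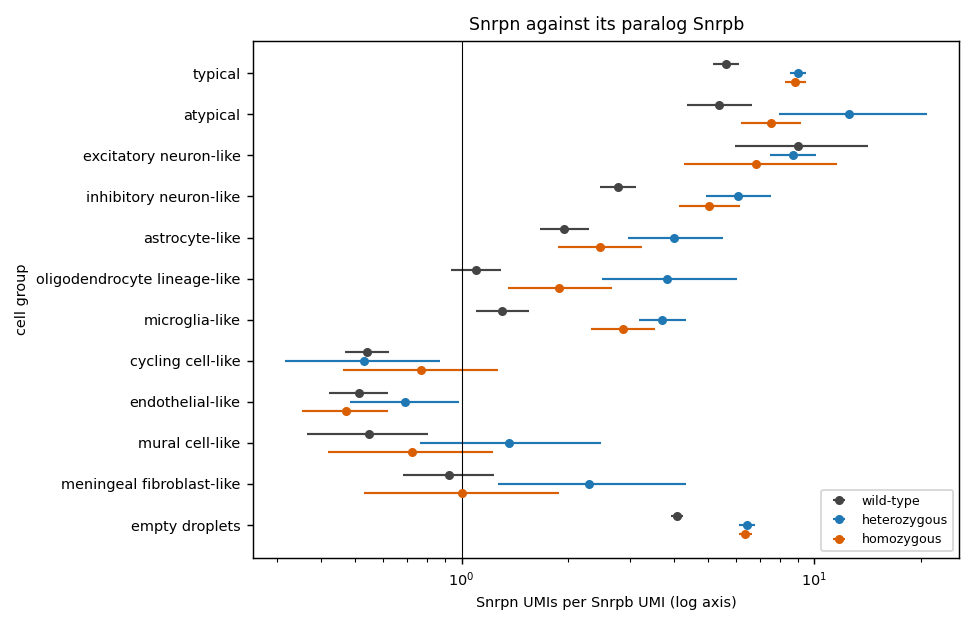
*Snrpn* UMIs per *Snrpb* UMI (horizontal log axis) by cell group and library, with 95% intervals; the vertical line marks 1. Neurons, astrocyte-like cells and empty droplets lie right of the line. Oligodendrocyte lineage-like and microglia-like values do too, but the wild-type oligodendrocyte lineage-like interval (0.935 to 1.30) includes 1. Microglia-like cells mix clusters. In 1 cluster with 10 microglial markers, *Snrpn* held 71 (wild-type), 71 (heterozygous) and 23 (homozygous) UMIs, against 84, 51 and 39 of *Snrpb*. Endothelial-like and cycling cells lie at or left of it.

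Among 61 other listed imprinted genes, 49 were in the table and 13 passed the filter for homozygous and 14 for heterozygous over wild-type. In homozygous, 2 were at least 0.5 higher and 2 at least 0.5 lower, against 5.32% and 3.28% of all genes. In heterozygous, 1 was higher and 2 were lower, against 6.36% and 3.97%. *Blcap*, the host gene of *Nnat*, was at least 0.5 higher in both mutant libraries, with 23.2 CPM (wild-type), 41.8 CPM (heterozygous) and 38.9 CPM (homozygous). Its ratios had the opposite sign to those of *Nnat*, which lies within it on the other strand, and reads of the pair cannot be told apart there if the counting ignored strand. *Meg3*, a maternally expressed noncoding RNA, was lower in both, with 49.6, 28.2 and 28.0 CPM, and *Ppp1r9a*, a neuronal actin-binding protein, with 31.1, 21.8 and 21.9 CPM. The genes with the highest CPM in typical cells were *Gnas* (1380, 1393 and 1336 CPM), *Cd81* (363, 479 and 470.5 CPM), *Nap1l4*, *Commd1* and *Pon2*. The median log2 ratio of the list was 0.07 in homozygous and 0.11 in heterozygous, against 0.08 and 0.06 over all genes.

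The lists of genes that work with the members were counted at the same limit of 0.5. Of 20 insulin and IGF genes, 5 passed the filter for homozygous and 4 for heterozygous over wild-type, and *Igfbp7*, a secreted binding protein of blood vessels, was lower in both mutant libraries, with 40.3 CPM (wild-type), 8.35 CPM (heterozygous) and 12.2 CPM (homozygous). It passed the filter only through the wild-type library, so its place among the lower genes was fixed by the filter. The stress response list around *Impact* had 1 gene lower in homozygous, and 1 higher and 1 lower in heterozygous, of 4 that passed, against 3.28% lower in homozygous and 6.36% higher and 3.97% lower in heterozygous over all genes. The lists around *Ndn* and *Peg3* (7 passed), around *Nnat* (4 passed) and of genes that keep imprints (6 passed) had 0 at least 0.5 higher or lower in either mutant library. Over all genes, 5.32% were higher and 3.28% lower in homozygous, and 6.36% and 3.97% in heterozygous. With so few genes, 0 lies near these shares. Named only after their values were seen, the genes of these lists and of the other imprinted genes that were past the limit in 1 mutant library were *Ddit3* (lower) and *Begain* (higher) in homozygous, and *Atf4* (lower), *Asns* (higher) in heterozygous.

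Over 35 combinations of cell group and library, the genes most like each member by Pearson r of log2(CPM + 1), were sought among 12121 genes. *Snrpn* was most like *Vamp2* (r = 0.967), a synaptic vesicle protein, *Mllt11* (0.950) and *Camk2b* (0.944). *Igf2* was most like *Ogn* (0.904), *Mgp* (0.894) and *Col1a2* (0.887), genes of extracellular matrix. *Grb10* was most like *Phactr2* (0.855), *Flna* and *Lama1*. The genes most like *Ndn* were *Prmt2* (0.770), *Ngfrap1* and *6330403K07Rik*, and those most like *Nnat* were *Chd3os* (0.816), *Hdgfrp3* and *Atxn7l3b*. *Peg3* was most like *Gprasp1* (0.783), *Camsap1* and *Ddit3*. *Impact* was most like *Arxes1* (0.801), *Wdr6* and *Gprasp1*, and *Ube3a* was most like *Rtn4* (0.797), *Zfp207* and *Nisch*. Among pairs of members the highest r was 0.646, for *Peg3* and *Impact*, followed by 0.637 for *Grb10* and *Igf2* and 0.625 for *Ndn* and *Nnat*. The genes named above were the best of 12121 for each member, so a lower r among the few member pairs was fixed by that choice. The points share libraries and free RNA.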

How the data were processed

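Cells came from 10X Single Cell 3′ v2 libraries. UMI counts were deposited without normalization, with Cell Ranger 2.0.1 and mm10 named in the submitters' processing notes. The authors filtered cells on UMIs, genes and mitochondrial share; the mitochondrial column is deposited as a fraction although its header says percent. The filtered counts equalled the matrices at 139168 of 139168 member by cell values. The log-normalized and scaled neuronal tables were not used. All barcodes held 55057757 UMIs in wild-type, 34906481 in heterozygous and 33322518 in homozygous, and typical cells 3670646, 10418228 and 6074494.

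UMIs were summed per library and the authors' class (typical, atypical, other) and scaled to CPM of each sum, with exact Poisson and conditional binomial 95% intervals, which cover counting error only. Other cells were clustered (Leiden, leidenalg 0.10.2, resolution 1, 20 components, 1500 variable genes, imprinted genes left out) into 23 clusters, of which 3, with 714 cells, stayed unnamed. No doublet caller was run; leaving out the 5% deepest cells was an alternative, as were TMM (edgeR 4.0.16) and DESeq2 1.42.0 factors. Python 3.11.15, numpy 2.4.6, scipy 1.17.1 and R 4.3.3 were used, and the scripts were tested on simulated data. Members and lists were chosen with earlier results of these data known. Named genes were all members, *Snrpb*, listed genes that averaged 20 CPM or more and lay at least 0.5 above or below wild-type (log2) in both mutants, the 5 most abundant other imprinted genes, and the 3 genes most alike to each member. Whether counting used strand is not given in the sources used here. The list of ubiquitin genes is not reported here.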

Additional observations from a re-analysis of the deposited data

Results flagged for a closer look

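Each of these differences is between groups of cells of single libraries, and the difference itself was not tested. In typical cells, *Ndn* lay on opposite sides of wild-type in the mutant libraries, with log2 ratios of −0.65 in heterozygous and 0.23 in homozygous. *Snrpn* was lower in homozygous than in heterozygous meningeal fibroblast-like cells (log2 ratio −1.16), mural cell-like cells (−1.08) and oligodendrocyte lineage-like cells (−0.74), against 0.05 in typical cells. The meningeal fibroblast-like ratio rests on 22 homozygous and 39 heterozygous UMIs of *Snrpn*, and the mural cell-like ratio on 26 and 30. *Nnat* was also lower in homozygous than in heterozygous mural cell-like (−1.04), endothelial-like (−0.53) and oligodendrocyte lineage-like cells (−0.52), against 0.06 in typical cells. Its mural cell-like ratio rests on 17 UMIs in 40 homozygous cells and 19 UMIs in 22 heterozygous cells. The oligodendrocyte lineage-like cells mixed clusters in unlike shares, and 1 cluster held 31 of 46 heterozygous but 33 of 82 homozygous cells. Within it the homozygous over heterozygous log2 ratio was −0.59 (−1.18 to −0.03) for *Snrpn*, while that of *Nnat* turned to 0.15 (−0.59 to 0.87).

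In microglia-like cells, *Nnat* was higher than wild-type by 0.23 in heterozygous and 0.28 in homozygous on the log2 scale, against −0.31 and −0.25 in typical cells. Here 108 of 272 wild-type, 291 of 372 heterozygous and 163 of 223 homozygous cells were in 1 cluster, and within that cluster *Nnat* had 708, 625 and 677 CPM. *Ube3a* was higher in heterozygous than in wild-type endothelial-like (0.60) and inhibitory neuron-like cells (0.35), against −0.31 in typical cells. The inhibitory neuron-like cells mixed clusters too, with 596 of 721 wild-type but 81 of 184 heterozygous cells in the largest. There the *Ube3a* ratio was 0.30 (−0.24 to 0.80), and in the *Npy* and *Sst* cluster it turned to −0.26 (−0.59 to 0.07).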

How the results depend on the processing

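No paired analysis was possible because each genotype has 1 library and no result comes from a test; for the same reason no library could be left out. Of 189 genotype ratios under the alternatives, 186 moved by less than their counting interval. None of either mutant library over wild-type changed sign, while the homozygous over heterozygous ratios of *Grb10*, *Igf2*, *Impact* and *Peg3*, whose intervals include 0, did so under at least 1 alternative. *Ndn* in typical cells ranged from −0.72 to −0.60 for heterozygous over wild-type and from 0.85 to 0.92 for homozygous over heterozygous. The number of members at least 0.5 higher in homozygous than in wild-type went from 1 to 0 with TMM factors, DESeq2 factors, CPM without mitochondrial and ribosomal protein genes and free RNA subtracted, as *Snrpn* fell below the limit (range 0.45 to 0.53). Those at least 0.5 lower went from 0 to 1 (*Peg3*, which then passed the filter) without mitochondrial and ribosomal protein genes. With a fold of 0.3, heterozygous over wild-type had 1 member higher (*Snrpn*) in place of 0 and 3 lower (*Ndn*, *Nnat*, *Ube3a*) in place of 1. *Nnat* in wild-type typical over other cells changed sign as a mean over cells (−0.023); the cause was not tested. Free RNA was estimated at 27.6% of typical UMIs in wild-type from the mural list, 13.7% in heterozygous from the meningeal list and 20.3% in homozygous from the blood list, so the values are not like for like. *Igf2* had no value after its subtraction, and subtraction was not run for the other cells, which hold the marker cells. The homozygous *Ndn* ratio of typical over other cells went from 0.15 to 0.52 without the deepest cells. With 12 to 38 UMIs in typical cells per library, depth limits *Grb10* and *Igf2* most. With 1 UMI in each library as the filter, 14.0% and 18.0% of all genes were at least 0.5 higher and lower in homozygous than in wild-type, against 5.32% and 3.28%, and 12.7% and 19.7% in heterozygous, against 6.36% and 3.97%.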

Other observations

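*Zrsr1*, a paternally expressed imprinted gene outside the naming rule and chosen after its values were seen, was also lowest in the heterozygous library. In typical cells it had 9.26 CPM (34 UMIs, wild-type), 3.36 CPM (35 UMIs, heterozygous) and 13.01 CPM (79 UMIs, homozygous), and 9.14, 2.94 and 9.79 CPM in empty droplets.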
